A study of Homo sapiens with 4 samples.

Results

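PABPC4 peaks that lay in 3′ UTRs just before genomic stretches rich in adenosine were examined in MDA-MB-231, a human cell line established from breast cancer with mesenchymal features. A peak was taken when its centre lay in a 3′ UTR of GENCODE 44 on its own strand and an A-rich stretch, meaning an uninterrupted run of 6 A or at least 7 A among 10 nt, followed within 50 nt of its 3′ end. There were 6037 such peaks among the 18888 PABPC4 peaks of 3′ UTRs (31.96%) and the 63507 positions of the whole list. For comparison, 20.2% of all windows of 50 nt in the 3′ UTRs of genes with a 3′ UTR peak held such a stretch. The other 12851 3′ UTR peaks, with no such stretch, served as the comparison. The peaks came from PAPERCLIP, in which ultraviolet light bonds PABPC4 to RNA, an antibody collects it, and an oligo(dT) primer copies the attached fragments, or tags, from their A-rich ends. The 2 PABPC4 samples, like 2 samples for the nuclear RNA-binding protein HNRNPC from the same series, were grown without a named genetic change or drug and crosslinked at 400 mJ/cm2 and 254 nm. Tags of both PABPC4 samples had been pooled into 1 list, so no spread between samples could be given, and the labels do not say whether the samples were separate cultures. All intervals below are 95% intervals that cover counting over peak positions only, and peaks of the same gene share their mRNA. The list carried 3′ UTR peaks in the mesenchymal genes VIM (tallest 10197 tags), AXL (1041 tags) and CD44 (331 tags), 1 peak of 56 tags in the epithelial cadherin CDH1, and 0 peaks in the hormone receptors ESR1 and PGR.

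Most mRNAs are cut downstream of a poly(A) signal, a hexamer that is usually AAUAAA or AUUAAA, and receive a tail of adenosines that the genome does not encode. PABPC4 is a cytoplasmic poly(A)-binding protein that coats such tails. An oligo(dT) primer can anneal to a tail, which marks a true 3′ end, but also to adenosines that the genome encodes inside a transcript, which is known as internal priming. Peaks before A-rich stretches are those at which both can occur, and which of them applied to a given peak was not tested. The 2 marks of a 3′ end used here were a signal hexamer in the last 40 nt before the peak end and an annotated transcript end within 25 nt of it.

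The reverse transcription primer of the study ended in 15 T with no anchoring base after them. Its last 24 bases are shown because they set what it could anneal to, with the T run in capitals.
PAPERCLIP primer: cttccgatcTTTTTTTTTTTTTTT

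The tallest peaks that carried a hexamer are shown first, as the 30 nt that end at the peak end (hg38, DNA letters, 5′ to 3′). Capitals mark the hexamer. The first 3 peaks also had an annotated end, and the last 3 did not.
TMBIM6, chr12:49764701-49764730, plus strand: acaagatATTAAAaaaaaaaaagaaagaaa
RACK1, chr5:181236928-181236957, minus strand: acaAATAAAaaaaaaactggcttttctgac
RPL38, chr17:74209850-74209879, plus strand: ctgtattatATTAAAatactaaaaatccta
PTPRF, chr1:43622866-43622895, plus strand: aAATAAAaaacaaaaaaaacaaaaaaccca
RPL36AL, chr14:49618689-49618718, minus strand: gaaAATAAAtacagtgatattcttacgcaa
IGFBP7, chr4:57031077-57031106, minus strand: ttaaacaAATAAAatactttttatcacaac

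For peaks with no hexamer before their end the sequence after the peak is shown, with the A-rich stretch in capitals. A hexamer after the peak end did not count as a mark, and the second PDLIM5 stretch below holds ATTAAA. The first 3 peaks had an annotated end and the next 3 had neither mark. The last 3 are the A-rich peaks of PDLIM5, a gene the study followed up. The printed sequence begins 18 nt after the peak end for EMP1, 29 nt for TPI1 and 19 nt for CCNI. For all other peaks of this list it begins directly after the peak end. The stretch itself begins 23 nt after the peak end in EMP1, 34 nt in TPI1 and 24 nt in CCNI.
EMP1, chr12:13216790-13216819, plus strand: tttctAAAAAAAAtgtggagaaatatggat
EIF4A1, chr17:7578707-7578736, plus strand: AAAAAAAAAACACTAAtccatttccctaac
GNAI2, chr3:50258921-50258950, plus strand: agaaaactttttAGAGAAAAACTAtttaaa
TPI1, chr12:6870904-6870933, plus strand: tgtgcAAGAAAAAAAAAAAAAcaagaacag
NAP1L1, chr12:76047358-76047387, minus strand: AAAAAAAAAAAAAAAATTCAttttctttgg
CCNI, chr4:77047960-77047989, minus strand: tttttAAACTTAAAAAAtctctttgtagta
PDLIM5, chr4:94587227-94587256, plus strand: tgAGAAAAGGAAGAtgaacatgttttgtgc
PDLIM5, chr4:94664104-94664133, plus strand: AGAAAAAGGAAAATTAAAAttactaattaa
PDLIM5, chr4:94665483-94665512, plus strand: AAAAAAAAAAAAAAAAAAAAAAAAGAGAGA

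To ask which of these peaks carried the marks of a 3′ end, each was placed in 1 of 4 classes. A signal hexamer was found at 1664 of the 6037 peaks, or 27.6% (Wilson interval 26.5 to 28.7%), against 48.6% of all 3′ UTR peaks and 58.5% of the other 3′ UTR peaks (57.6 to 59.3%). The difference from the other peaks was -30.9 percentage points (Newcombe interval -32.3 to -29.5). An annotated end was near 1892 peaks, or 31.3% (30.2 to 32.5%), against 48.2% of all 3′ UTR peaks and 56.1% of the others, a difference of -24.7 points (-26.2 to -23.3). Both intervals left out 0. Among all windows of 40 nt in the 3′ UTRs of genes with a peak, 5.77% held a hexamer, so the hexamer was more frequent at the A-rich peaks than in 3′ UTR sequence at large and less frequent than at other peaks.

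Both marks were present at 1013 peaks, or 16.8% (15.9 to 17.7%), where 35.8% of all 3′ UTR peaks had both. The hexamer alone was present at 651 peaks, or 10.8% (10.03 to 11.6%, all 3′ UTR peaks 12.8%). An annotated end alone was near 879 peaks, or 14.6% (13.7 to 15.5%, all 3′ UTR peaks 12.4%). Neither mark was present at 3494 peaks, or 57.9% (56.6 to 59.1%), against 39.0% of all 3′ UTR peaks and 30.2% of the others (29.4 to 30.95%). Peaks with neither mark thus formed the largest of the 4 classes among the A-rich peaks, while peaks with both marks were the largest class of the others, at 44.7%. Hexamer and annotated end were both placed relative to the peak end. The median width was 47 nt with neither mark (quartiles 37 and 48) and 45 nt with both (30 and 63). The nearest annotated end lay within 100 nt at 28.9% of A-rich peaks with neither mark (27.4 to 30.4%). Whether a peak end was the 3′ end of an RNA or only the end of a read was not tested.

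**Figure D1:**
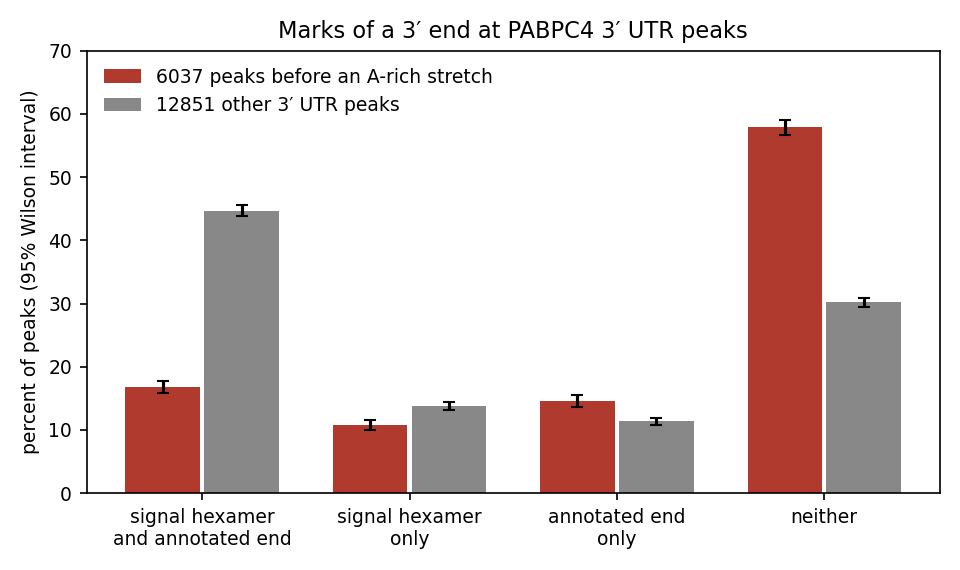
Percent of peaks (vertical axis) in each of the 4 classes (horizontal axis) for the 6037 peaks before an A-rich stretch and the 12851 other 3′ UTR peaks, with 95% Wilson intervals as error bars. Neither mark was present at 57.9% of the former and 30.2% of the latter, and both marks at 16.8% and 44.7%.

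The hexamer itself is rich in A, and an A-rich sequence can hold it by composition. In 673 of the 1013 peaks with both marks (66.4%), and in 415 of the 651 with the hexamer alone (63.7%), every hexamer lay wholly inside an A-rich stretch before the peak end, as in TMBIM6 and PTPRF above. The same held for 4428 of the 7516 other 3′ UTR peaks with a hexamer (58.9%, 57.8 to 60.02%), against 65.4% of all A-rich peaks with one (63.1 to 67.6%). When such hexamers were not counted, a choice made after seeing the data, 9.54% of the A-rich peaks (8.83 to 10.3%) and 24.03% of the others (23.3 to 24.8%) kept one, and with both shares lower the difference fell in size to -14.5 points (-15.5 to -13.4). The position of the hexamer differed little between the sets. With the last nt of the peak counted as 0, it most often began at -18 in the A-rich peaks (median -19, quartiles -23 and -16) and at -19 in the others (median -20, quartiles -23 and -17).

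Sequences that flank cleavage sites were also counted: UGUA, which cleavage factor I binds upstream, and GU-rich sequence, which the cleavage stimulation factor binds downstream. UGUA lay in the 100 nt before the peak end at 61.9% of peaks with both marks (58.9 to 64.8%) and 58.1% of those with the hexamer alone (54.2 to 61.8%). It lay there at 43.5% of peaks with an annotated end alone (40.2 to 46.8%) and 46.1% of those with neither mark (44.4 to 47.7%). All 4 shares lay above 39.7%, the share of all such windows in these 3′ UTRs. The other 3′ UTR peaks had it at 54.1% (53.2 to 54.96%), and those of them with both marks at 56.8% (55.5 to 58.1%), an interval below that of the A-rich peaks with both marks. UGUGU or GUGUG lay in the 60 nt after the peak end at 17.8% of peaks with both marks (15.5 to 20.2%), 13.4% with the hexamer alone, 13.2% with the end alone and 11.1% with neither (10.1 to 12.2%). Of all 3′ UTR windows of that length, 12.3% held it, and of the other 3′ UTR peaks 23.4%. By the rule the A-rich peaks hold an A-rich stretch in that window, which leaves fewer places for GU-rich sequence than at the other peaks. Both elements were searched on the strand of the peak, and a match is not evidence that a factor bound there.

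The classes also differed in the base composition around the peak end. In the 20 positions from 11 to 30 nt before the end, adenosine averaged 45.9% with both marks and 45.7% with the hexamer alone, and 32.3% and 31.1% with the end alone and with neither. This follows in part from the hexamer, which chose the first classes. In the 10 nt after the peak end it averaged 44.97% with both marks, 46.6% with the hexamer alone, 65.8% with the end alone and 55.01% with neither, against 26.96% at the other 3′ UTR peaks, a contrast that the rule set. In the 40 nt after the peak end, T in the genomic strand (U in RNA) averaged 34.3% with both marks and 31.8% with the hexamer alone, against 23.8% with the end alone and 24.9% with neither.

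**Figure D2:**
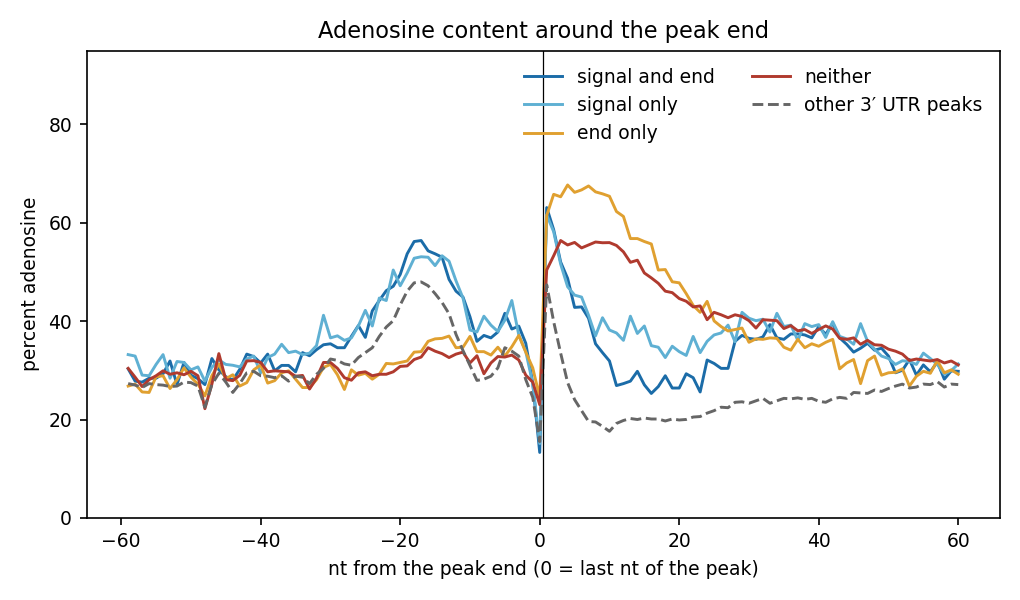
Percent adenosine (vertical axis) at each nt around the peak end (horizontal axis, 0 is the last nt of the peak) for the 4 classes and for the other 3′ UTR peaks. The classes with a hexamer rose above 50% before the peak end and dropped within 10 nt after it, while the end-only and neither classes had no such rise before the end and stayed above 50% through 14 nt after it.

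The place of the first A-rich stretch was not fixed by the rule beyond the 50 nt limit, and it separated the classes. Its median start was 21 nt after the peak end with both marks and 17 nt with the hexamer alone, against 2 nt with an annotated end alone and 6 nt with neither. It started within 5 nt of the peak end at 34.4% of peaks with both marks (31.5 to 37.3%) and 33.03% with the hexamer alone (29.5 to 36.7%). The share was 66.6% with the end alone (63.4 to 69.6%) and 49.1% with neither (47.4 to 50.7%). Where the stretch started 21 nt or more after the peak, 42.1% of peaks had a hexamer (39.9 to 44.3%), against 19.7% where it started within 5 nt (18.2 to 21.2%). Adenosine rose from the last nt of the peak to the next, from 13.3 to 63.1% with both marks and 23.01 to 50.4% with neither. At the other 3′ UTR peaks it rose from 15.5 to 47.4%. The study does not say whether terminal A were trimmed from PABPC4 tags, and an effect of trimming on where peaks end was not tested.

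**Figure D3:**
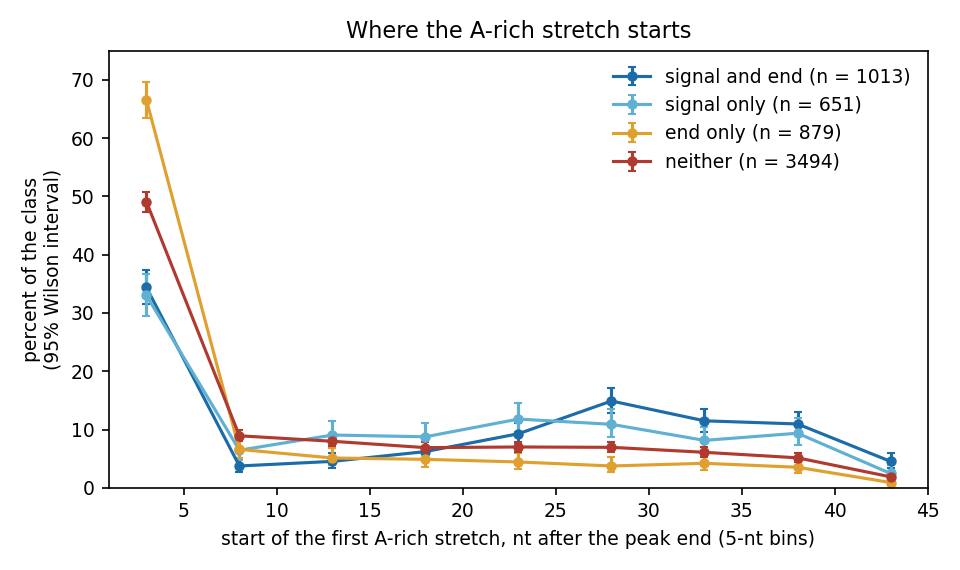
Percent of each class (vertical axis, 95% Wilson intervals) by the distance from the peak end to the start of the first A-rich stretch, in bins of 5 nt (horizontal axis). All 4 classes were highest in the first bin, from 33.03% with the hexamer alone to 66.6% with the end alone, and the classes with a hexamer had a second, lower maximum, of 14.9% from 26 to 30 nt with both marks and 11.8% from 21 to 25 nt with the hexamer alone.

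Stretches also differed in length. The longest uninterrupted run of A that began within 50 nt had 10 or more A after 5.53% of peaks with both marks (4.28 to 7.11%) and 7.83% with the hexamer alone (6.01 to 10.2%). The share was 41.1% with the end alone (37.9 to 44.4%) and 29.7% with neither (28.2 to 31.3%). Read the other way, a hexamer was present at 39.5% of the 2963 peaks whose longest run had 5 or fewer A (37.7 to 41.3%). It was present at 24.7% of the 1567 with 6 to 9 A, at 9.29% of the 872 with 10 to 14 A and at 4.09% of the 635 with 15 or more A (2.81 to 5.93%). The last value lay below 5.77%, the share of all 3′ UTR windows, though its interval included it. The share with an annotated end did not follow the same course. It went from 35.6% (33.9 to 37.3%) through 26.8% and 24.4% (21.7 to 27.4%) to 32.1% (28.6 to 35.9%), so that the interval of the longest runs overlapped that of the shortest.

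**Figure D4:**
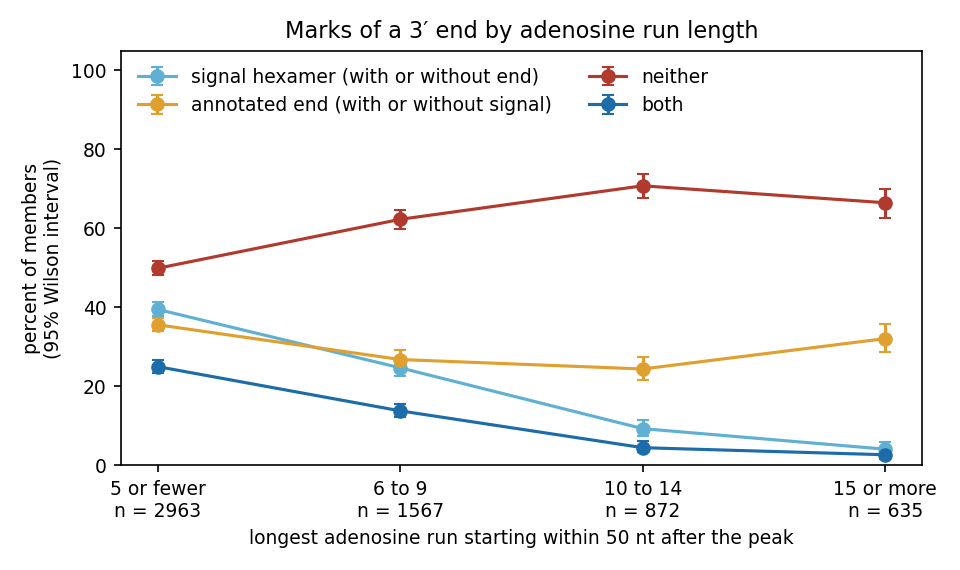
Percent of the A-rich peaks (vertical axis, 95% Wilson intervals) with a hexamer, with an annotated end, with both and with neither, by the longest run of A after the peak (horizontal axis, in A, with the number of peaks). The hexamer share declined from 39.5 to 4.09%, while the share with an annotated end was 35.6% for the shortest and 32.1% for the longest runs.

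An annotated end did not always come with the other features of a 3′ end. Of the 879 peaks with an end but no hexamer, 341 had it within 5 nt, and 164 of those (48.1%, 42.8 to 53.4%) were followed by a run of 10 or more A. Among peaks with both marks, 624 had the end within 5 nt and 28 of them (4.49%, 3.12 to 6.41%) had such a run. The last annotated end of the gene lay within 25 nt at 13.1% of peaks with an end alone (11.01 to 15.5%) and at 51.7% of those with both marks (48.6 to 54.8%). The A-rich stretch lay wholly inside annotated 3′ UTR sequence at 87.4% of peaks with an end alone and 51.7% with both marks. It lay inside at 99.2% of peaks with the hexamer alone and of those with neither, which the absence of a nearby annotated end favours. A variant hexamer, of 11 looked for, was present at 32.1% of peaks with an end alone (29.1 to 35.2%) and 26.4% of those with neither (25.01 to 27.9%). At other 3′ UTR peaks of the same classes it was present at 57.1% (54.6 to 59.6%) and 29.6% (28.2 to 31.1%). Over all 3′ UTR peaks without a main hexamer the share was 32.8%, and over all 3′ UTR windows of 40 nt without one it was 18.4%. Taking the absence of all of these together gave 1216 peaks, or 20.1% of all 6037 (19.1 to 21.2%). They had no annotated end within 25 nt, no hexamer of either kind in the last 40 nt and a stretch inside annotated 3′ UTR that began within 5 nt. The 5 nt limit rests on where the peak ends were placed, and trimming of terminal A is not described for these tags. Hexamers after the peak end were not counted here. AAUAAA or AUUAAA lay inside an A-rich stretch after the peak at 29.5% of peaks with neither mark and 27.2% with an end alone. The share was 25.99% over all A-rich peaks.

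To start from the sequence and not from the peaks, all runs of 6 or more A in 3′ UTRs of the 9562 genes with a 3′ UTR peak were listed. Of 26293 runs, 21596 lay more than 50 nt from any annotated end. A PABPC4 peak ended in the 50 nt before 567 of the 10870 runs of 6 A (5.22%, 4.81 to 5.65%). The share was 7.71% for 7 A, 10.8% for 8 A, 15.7% for 9 A, 24.04% for 10 to 12 A and 29.7% for 13 to 15 A. It reached 33.6% (30.5 to 36.9%) of the 839 runs of 16 or more A. For comparison, 1.82% of all 3′ UTR positions as far from an annotated end had a peak end in the 50 nt before them. The share rose with each step in run length, and neighbouring intervals overlapped only between 13 to 15 A and 16 or more A. Most runs, the longest included, had no peak before them in this list.

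**Figure D5:**
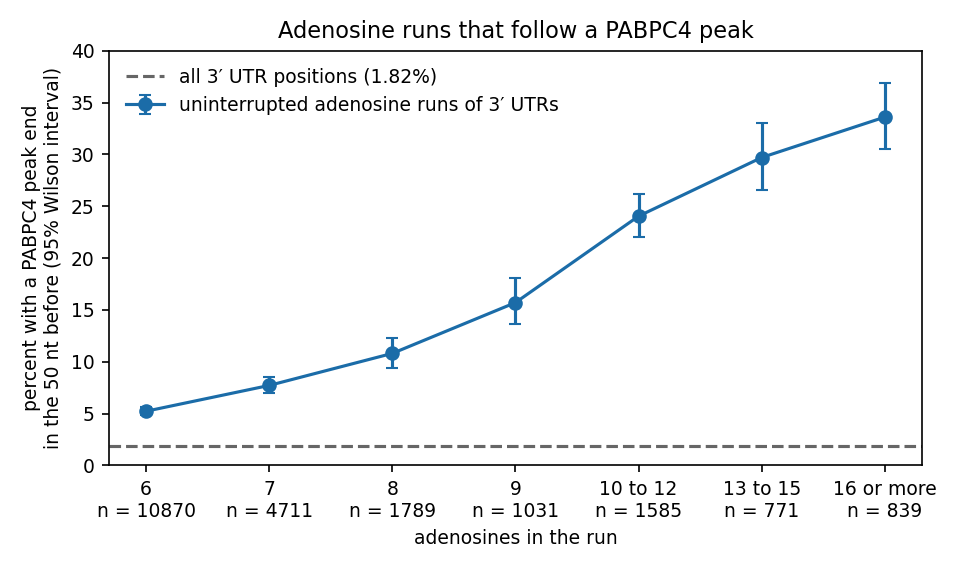
Percent of uninterrupted runs of A in 3′ UTRs, more than 50 nt from annotated ends, with a PABPC4 peak end in the 50 nt before the run (vertical axis, 95% Wilson intervals), by run length in A (horizontal axis). The share rose from 5.22% at 6 A to 33.6% at 16 or more A, above the 1.82% of all 3′ UTR positions (dashed line).

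A single sequence recurred before the A-rich stretches. ACTCCAGCCTGG, the most frequent 12-mer in the last 40 nt of the A-rich peaks, was present at 186 of the 6037 peaks (3.08%) and 0 of the 12851 others. It belongs to the end of Alu elements, primate repeats whose consensus goes on into an A-rich tail, so a rule that asks for an A-rich stretch favours it and the contrast with the other peaks is not independent of that rule. The rule did not use the classes. The hexamer that sets them was searched in the last 40 nt, the same window in which the 12-mer was picked. A repeat with a fixed sequence there can fall in a class through that sequence. The class shares are thus a description, and no conclusion is drawn from them. Within 100 nt of the peak end it was present at 5.12% of peaks with an end alone (3.85 to 6.78%) and 5.01% of those with neither mark (4.33 to 5.78%). It was present at 0.197% of those with both marks (0.0542 to 0.717%) and 0.461% with the hexamer alone (0.157 to 1.35%). In the same 100 nt, 225 of all A-rich peaks (3.73%) and 26 of the other 3′ UTR peaks (0.202%) had the 12-mer.

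Peak height is the number of pooled tags at the summit. It follows the amount of an mRNA as well as PABPC4 binding and priming, which cannot be told apart in this list. The A-rich peaks had a median height of 44 tags (order-statistic interval 43 to 45, quartiles 22 and 84), against 46 tags (45 to 47) for the other 3′ UTR peaks, and held 25.8% of the summed 3′ UTR height. By class the medians were 49 tags with both marks (45 to 55), 39 with the hexamer alone (35 to 41), 51 with the end alone (46 to 56) and 43 with neither (41 to 44). The order was not that of the other 3′ UTR peaks, where both marks gave 65 tags (62 to 67) and neither mark 35 tags (33 to 36). Peaks with neither mark were thus taller before an A-rich stretch than without it, and peaks with both marks were lower. Median height rose with the longest run of A, from 39 tags at 5 or fewer A (37 to 40) to 59 tags at 15 or more A (53 to 65). Among the 100 tallest A-rich peaks, 41 had both marks and 34 had neither. The authors' p-value was at most 0.001 for 97.4% of the A-rich peaks.

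Within a gene, differences in mRNA amount between genes drop out. Where a gene had both kinds of 3′ UTR peak, the tallest A-rich peak of a class was set against the tallest other peak of any class. The comparison is thus not matched by class, unlike the medians above. The A-rich peak with neither mark stood above the other peak in 823 of 1961 genes (41.97%, 39.8 to 44.2%). Its median height ratio to that peak was 0.778 (0.718 to 0.825). For peaks with both marks the ratio was 0.955 (0.839 to 1.09, 490 genes) and for an end alone 0.924 (0.803 to 1.06, 580 genes), both intervals including 1. For the hexamer alone it was 0.667 (0.586 to 0.788, 454 genes).

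The 6037 peaks fell in 4095 genes, or 42.8% of the 9562 genes with a 3′ UTR peak. These genes had long 3′ UTRs, with a median of 2787 nt against 1276 nt for the 5467 genes with other 3′ UTR peaks only. A longer 3′ UTR has more places for a peak and an A-rich stretch, so the choice itself favours this contrast. In 1292 genes (13.5%) every 3′ UTR peak lay before an A-rich stretch, and in 442 (4.62%, 4.22 to 5.06%) every 3′ UTR peak did so and had neither mark. Of the 2579 genes with a peak of the neither class, 1364 (52.9%, 50.96 to 54.8%) had a 3′ UTR peak with both marks as well. Of all genes with a 3′ UTR peak, 64.6% (63.6 to 65.5%) had one. The 2579 genes were chosen for a peak without both marks, and the 442 with no other kind of 3′ UTR peak could not have one with both. The choice itself thus lowers their share, and no conclusion about these genes is drawn from it. ZBTB20, a zinc finger transcription factor, had the most A-rich peaks, 14 of its 18 3′ UTR peaks. They had from 11 to 210 tags (median 56.5), and 11 had neither mark and 0 had both. The transcript regions of ZBTB20 annotated as 3′ UTR added up to 27601 nt. FOXP1, a forkhead transcription factor, had 9 of 12, from 24 to 353 tags, and RAB21, a GTPase of endosomal traffic, had 8 of 11, from 13 to 99 tags. Neither mark was present at 6 peaks in each of these 2 genes.

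The 5 tallest A-rich peaks with both marks had from 2130 to 3560 tags. TMBIM6, an endoplasmic reticulum protein that restrains cell death, had 3560 tags at chr12:49764549-49764730, with AUUAAA beginning at -22, an annotated end 4 nt upstream of the peak end and directly after it an A-rich stretch of 12 nt with 10 A in a row. RACK1, a scaffold protein of the small ribosomal subunit, had 3058 tags at chr5:181236928-181237045, its only 3′ UTR peak, with AAUAAA at -26 and an annotated end at the peak end itself. The ribosomal protein gene RPL38 had 2480 tags, the metallothionein MT2A 2215 tags and PABPN1, the nuclear poly(A)-binding protein, 2130 tags. In MT2A the A-rich stretch began 36 nt after the peak and was not inside annotated 3′ UTR, so that it lay beyond the annotated end, 3 nt downstream of the peak.

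Tall peaks with a hexamer and no annotated end were fewer. PTPRF, a receptor tyrosine phosphatase, had 1142 tags at chr1:43622731-43622895, with the nearest annotated end 32 nt upstream, just outside the limit. RPL36AL, a ribosomal protein paralogue, had 1023 tags in its only 3′ UTR peak, 159 nt before the annotated end. The insulin-like growth factor-binding protein IGFBP7 had 684 tags, the clathrin heavy chain CLTC 614 tags and the folate-processing hydrolase GGH 569 tags.

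With an annotated end and no hexamer, the tallest peak lay in PABPC1, the main cytoplasmic poly(A)-binding protein, at 2204 tags, with the stretch beginning at the first nt after it. EMP1, an epithelial membrane protein, had 1356 tags at chr12:13216602-13216772, 1 nt from an annotated end and 3169 nt before the last end of the gene. EIF4A1, the RNA helicase of translation initiation, had 1103 tags, with 10 A in a row directly after the peak. The G protein subunit GNAI2 had 1039 tags, and YWHAB, an adaptor of phosphorylated proteins, had 891 tags, lower than the 1090 tags of the tallest of its 9 3′ UTR peaks.

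Peaks with neither mark also reached high values. TPI1, the glycolytic enzyme triosephosphate isomerase, had 1761 tags at chr12:6870758-6870875, the tallest of its 3 peaks, with 13 A in a row starting within 50 nt and the nearest annotated end 64 nt downstream. NAP1L1, a histone chaperone, had 1669 tags at chr12:76047388-76047654, followed directly by 16 A, with the nearest annotated end 207 nt upstream. The cyclin CCNI had 1320 tags, the transcription factor SOX4 1249 tags, 1638 nt before its annotated end and followed directly by a stretch of 22 nt with 10 A in a row, and KHSRP, an RNA-binding protein that promotes mRNA decay, 1221 tags. All 5 of these peaks were the tallest 3′ UTR peak of their gene, which their choice as the tallest of the class favours. The same held for the 5 tallest of each other class, YWHAB excepted. The longest run of A, 45 in a row, followed a peak of 115 tags with neither mark in SLC25A37, a mitochondrial iron importer, where 115 tags was also the tallest 3′ UTR peak of the gene.

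PDLIM5, which encodes a PDZ and LIM domain protein of the actin cytoskeleton, had 5 3′ UTR peaks, of which 3 lay before A-rich stretches. The peak at chr4:94587179-94587226 had 49 tags and neither mark. The peak at chr4:94664033-94664103 had 298 tags and neither mark, with an annotated end 83 nt downstream. The tallest, at chr4:94665435-94665482, had 331 tags, an annotated end 1 nt upstream, no hexamer, the Alu 12-mer before it and 24 A directly after it. The other peaks of the gene were one of 224 tags with neither mark and one of 187 tags at chr4:94668174-94668220 with both marks. The peak with both marks was the fourth in height of the 5. Among 5 other genes that the study worked with and that were fixed as a list here, TXNRD1, a thioredoxin reductase, had 1 A-rich peak of 17 tags with neither mark, against 274 tags for its tallest 3′ UTR peak. The glycolytic kinase PGK1 had 1 of 57 tags with neither mark, against 752 tags, while HNRNPC, PABPC4 and KAT14 had 0 A-rich peaks.

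Gene groups were counted against the 42.8% of all genes, without matching for 3′ UTR length, which was longer in genes with an A-rich peak. A share above or below 42.8% is thus not read as a trait of a group. Among genes of cytosolic ribosomal proteins with a 3′ UTR peak, 11 of 54 had an A-rich peak (20.4%, 11.8 to 32.9%), and of their 14 A-rich peaks 8 had neither mark and 4 had both. In RPS29 the A-rich peak had 36 tags and the tallest 3′ UTR peak 4546 tags, and in RPL31 the 3 A-rich peaks had 58 to 96 tags against 3566 tags. Of the 19 cleavage and polyadenylation factors, 8 had an A-rich peak (42.1%, 23.1 to 63.7%). These included FIP1L1, a subunit of the cleavage and polyadenylation specificity factor, with 3 peaks of 10 to 112 tags and neither mark, and the scaffold SYMPK, with 1 peak of 155 tags and both marks. Of the 4 poly(A)-binding protein genes with a 3′ UTR peak, PABPC1 and PABPN1 had A-rich peaks, and of the 6 PDZ-LIM genes, PDLIM2 and PDLIM5 did.

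Peaks just inside and just outside the limits of the rule were compared as a description. Peaks whose stretch was complete only between 41 and 50 nt numbered 766, with a median of 44 tags, a hexamer at 44.5% and an annotated end at 38.1%. The 708 peaks just outside, with a stretch complete between 51 and 60 nt, had 42 tags, 43.8% and 37.6%. The 2005 peaks with at most 7 A in 10 nt and no run of 6 had 38 tags, 45.4% and 38.9%, and the 3369 peaks just outside, with at most 6 A in 10 nt, had 41 tags, 51.3% and 44.6%.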

How the data were processed

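For HNRNPC the study's methods describe collapsing reads by molecular identifier, trimming, alignment and valley-seeking peak calling with the CLIP Tool Kit, and the submitters' processing notes name UMI-tools, cutadapt, BWA 0.7.17 and hg38. No separate account is given for PABPC4 tags, whose list has the same layout as that of HNRNPC. Whether terminal A were trimmed from PABPC4 tags is thus not described. The signal the authors deposited is the height of each peak in unique tags pooled over both samples, not scaled to depth. The deposited name column also holds a gene ID, an expected height and the caller's p-value. Read totals were not analysed here, so the depth of each library is unknown. Peaks of the same gene are less independent than the intervals assume.

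Of 69778 listed entries, 6271 repeated a position under another gene ID and were dropped. Annotated 3′ UTRs of 19249 protein-coding genes (stop codon excluded) and all transcript ends came from GENCODE 44, and sequence came from hg38. 0 peaks ran past a chromosome end. A signal hexamer was AAUAAA or AUUAAA wholly within 40 nt before the peak end, on the strand of the peak. The 11 variants were the hexamer AGUAAA, the hexamer UAUAAA, the hexamer CAUAAA, the hexamer GAUAAA, the hexamer AAUAUA, the hexamer AAUACA, the hexamer AAUAGA, the hexamer ACUAAA, the hexamer AAGAAA, the hexamer AAUGAA and the hexamer UUUAAA. An A-rich stretch was searched on the same strand, and the longest run of A could extend past 50 nt. Wilson, Newcombe and order-statistic intervals were computed with Python 3.11.15, numpy 2.4.6 and scipy 1.17.1, and the sequence searches and intervals were tested on simulated data. A difference was called when its interval left out 0. Named genes were those of the 5 tallest A-rich peaks of each class, 6 genes chosen from those the study worked with (PDLIM5, HNRNPC, PABPC4, KAT14, TXNRD1 and PGK1), the 3 genes with the most A-rich peaks and the longest run of A. Genes of the fixed lists were picked out of their list after their values were seen. The members and lists were chosen with earlier results of these data known. Alternatives covered the A-rich definition, the windows, the hexamer list, the transcripts used, height, the caller's p-value and 1 peak per gene. HNRNPC peaks were used for overlap only.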

Additional observations from a re-analysis of the deposited data

How the results depend on the processing

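Both differences from the other 3′ UTR peaks kept their direction in all 19 recalculations, from -14.5 to -38.9 points for the hexamer and from -18.2 to -32.9 points for the annotated end. The number of A-rich peaks moved most with the definition, to 3032 with 6 A in a row only, 3500 within 20 nt, 9112 within 100 nt and 3409 at heights of at least the list median. The share with neither mark was 42.6% with 13 hexamers, 61.3% with AAUAAA only and 64.8% without hexamers wholly inside an A-rich stretch, which was added after seeing the data. It was 64.5%, 48.7% and 41.1% with annotated ends within 10, 50 and 100 nt and 61.6% with ends of protein-coding transcripts only. It was 65.4% with 6 A in a row only, 61.6% with a stretch within 20 nt, 56.6% at heights of at least the list median and 53.8% for the tallest peak per gene. With a peak end required within 20 nt, 26.7% of runs of 16 or more A and 3.11% of runs of 6 A had a peak before them. The other recalculations of counts and shares moved by less than their interval or by less than 1.5 times. No paired analysis was possible because tags of both PABPC4 samples were merged before peak calling, and for the same reason no sample could be left out. Wider limits for hexamers and ends turn more peaks into marked ones by construction, so the split into classes is a description at the stated limits and not a count of true 3′ ends.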

Other observations

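Peaks of HNRNPC, the other protein of the series, hardly met the A-rich peaks. With an overlap of at least 1 nt on the same strand, 1 of the 6037 A-rich peaks overlapped an HNRNPC peak (0.0166%, Wilson interval 0.00292 to 0.0938%), against 37 of the 12851 other 3′ UTR peaks (0.288%, 0.209 to 0.397%). The difference was -0.271 percentage points (Newcombe interval -0.381 to -0.161) and rests on few peaks. The 1 overlap lay in ACTB, which encodes cytoplasmic beta-actin, at chr7:5527728-5527808, with 79 tags, neither mark and an annotated end 70 nt upstream, while the tallest 3′ UTR peak of ACTB had 975 tags.

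Some A-rich peaks belonged to more than 1 gene. The centres of 47 of the 6037 lay in 3′ UTRs of more than 1 gene, and 304 were listed under more than 1 gene ID.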
